A study of Mus musculus with 3 samples.

Results

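Histone methyltransferases and demethylases are the enzymes that add methyl groups to lysine and arginine residues of histones and take them off again. The members were the rows of the deposited expression table whose gene name begins with or equals one of the family names Kdm, Setd, Suv39h, Suv420h, Ehmt, Mll, Prdm, Nsd1, Whsc1, Dot1l, Prmt, Ash1l, Ash2l, Smyd or Jmjd, without Kdm1a, Kdm5c, Kdm5d and Kdm6a. That gave 71 of 34617 rows. Transcripts were compared between 2 RNA libraries of sorted cells from the main olfactory epithelium of mice aged 4 weeks. The O/Tet3 library came from OMP-tTA / tetO-Tet3-GFP mice of strain Fvb, in which a transactivator expressed from the olfactory marker protein gene Omp drives a Tet3-GFP transgene. The mOSN library came from EGFP-positive cells of OMP-ires-EGFP mice of strain C57BL/6J, which are mature olfactory sensory neurons. There is 1 library per group, and how many animals it holds is not stated in the labels. Genotype and strain go with the library and cannot be told apart from it. No difference below could therefore be tested or checked in a replicate, and each describes these 2 libraries.

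Methylation of histone H3 at lysine 4 marks promoters and enhancers, and methylation at lysine 36 and lysine 79 marks transcribed gene bodies. Methylation of H3 lysine 9 and trimethylation of H4 lysine 20 mark heterochromatin. In olfactory sensory neurons the silent odorant receptor clusters carry heterochromatic marks, and the choice of a receptor involves their removal at the chosen allele. Tet3 oxidises 5-methylcytosine in DNA to 5-hydroxymethylcytosine. Like the Jumonji histone demethylases, it is a dioxygenase that depends on iron and 2-oxoglutarate.

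The deposited numbers are log2(value + 1), and values below are given on the linear scale. The file does not name their unit. Their precision is that of printed FPKM, and the smallest values above 0 scaled roughly with the inverse of gene length. Levels of different genes are therefore compared as levels per length, which is an inference. The read depth is unknown, so no counting error can be given for a value. Over 2687 rows with low values in both libraries, the most frequent ratio was 1.88, found in 152 rows. It was taken as the step that 1 read makes in O/Tet3 relative to mOSN, which is also an inference. If that holds, equal values mean fewer reads in O/Tet3. The transgene was visible: Tet3 was at 145 in the O/Tet3 library and 3.72 in the mOSN library. All 7 markers of mature neurons fixed for the cell check were well above 1 in both libraries but were lower in O/Tet3 by 2-fold or more, with values of 9.63 to 285 in O/Tet3 and 91.9 to 1518 in mOSN. Of the 12943 rows that reached 1 in either library, 12.0% were lower in O/Tet3 by 2-fold or more of value + 1. The median log2 ratio of the 9934 rows that reached 1 in both libraries was 0.21, and ratios after subtraction of this shift are called centred.

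Genes that reached a value of 1 in O/Tet3 or in mOSN were compared, and a gene is called higher or lower where value + 1 differed at least 2-fold, a log2 ratio of at least 1 in size. Log2 ratios below are of value + 1, and folds given beside them are ratios of the values themselves, which are larger for low genes. Of the 71 members, 60 were compared. Of these, 9 were at least 2-fold higher in O/Tet3 (Kdm1b, Jmjd6, Smyd3, Prmt1, Suv39h2, Suv39h1, Prmt5, Prmt7 and Smyd5), 1 was at least 2-fold lower (Setd7), and 50 were within 2-fold. Over the whole table of 12943 compared rows, the shares past 2-fold were 16.5% on the higher side and 12.0% on the lower. The higher members, at 15.0% of those compared, were close to that share, and the lower members, at 1.67%, were fewer. The median log2 ratio of the 60 members was 0.21, and that of all compared rows was also 0.21. The interquartile range of the log2 ratios was -0.25 to 0.60 for the members and -0.39 to 0.75 for all compared rows. After centring, 7 members were higher and 2 lower, beside 11.3% and 15.1% of all rows; Prmt7 and Smyd5 then left the higher genes, and Kdm6b joined Setd7 among the lower ones. Of the 60, 3 reached 1 only in O/Tet3 (Kdm1b, Smyd5 and Jmjd5) and 1 only in mOSN (Setd1a). Among all 12943 compared rows, 1593 reached 1 only in O/Tet3 and 1416 only in mOSN. Genes that enter through 1 library have to differ to some degree. Over the 56 members with at least 1 in both libraries, 7 were higher and 1 lower, beside 13.1% and 6.50% of 9934 rows.

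**Figure D1:**
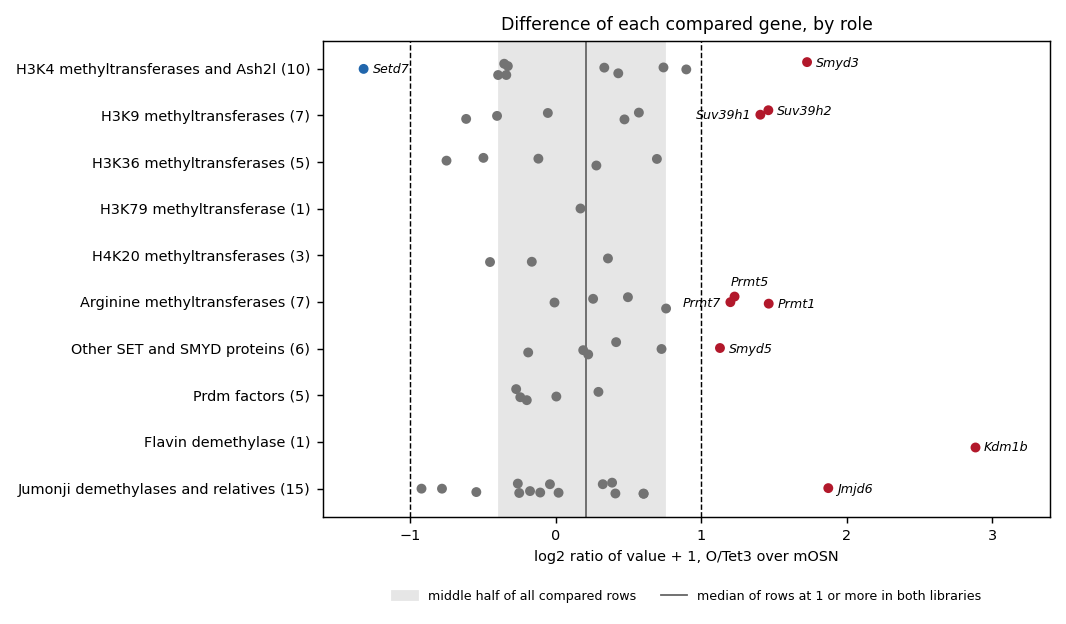
Log2 ratio of value + 1, O/Tet3 over mOSN, of the 60 compared members by role, with the number of genes in each role in brackets. Each point is a gene, red for at least 2-fold higher, blue for at least 2-fold lower; the band is the interquartile range of all 12943 compared rows and the line the median shift of 0.21. Kdm1b stands farthest to the right at 2.88 and Setd7 farthest to the left at -1.32.

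The member with the largest difference was Kdm1b, which encodes the flavin-dependent demethylase LSD2 of mono- and dimethylated H3 lysine 4, known in mouse for its part in setting maternal DNA methylation imprints in oocytes. It was at 8.54 in O/Tet3 and 0.294 in mOSN, with a log2 ratio of 2.88. The mOSN value is below the floor of 1, so the size of the difference depends on the pseudocount: the log2 ratio was 4.45 with a pseudocount of 0.1 and 4.86 with none. With the pseudocount of 1, Kdm1b was at rank 149 from the top by ratio among the 12943 compared rows. By level it was at rank 25 of the 71 members in O/Tet3 against rank 60 in mOSN. Genes close to Kdm1b had unequal ratios. In the GRCm38 annotation Kdm1b overlaps Dek, a chromatin protein gene, which was at 13.4 in O/Tet3 and 9.87 in mOSN (log2 ratio 0.41). Tpmt, a thiopurine methyltransferase gene within 1000 bases of Kdm1b, was at 7.19 in O/Tet3 and listed at 0 in mOSN (log2 ratio 3.03). Whether the authors' counting used strand is not stated in the labels, so reads of such close or overlapping genes may be shared between them. Of the 70 members matched to that annotation by name, 35 overlap another gene, and 49 overlap one or lie within 1000 bases of one. The germ cell marker Dazl also differed, at 97.1 in O/Tet3 and 0.135 in mOSN, while the germ cell gene Ddx4 was at 0.181 in O/Tet3 and 0.00800 in mOSN, and Sycp3 was listed at 0 in both libraries; the part of germ cell transcripts in the Kdm1b value was not tested.

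The H3 lysine 9 methyltransferases comprised 7 members, all compared. Of these, 2 were higher and 0 lower, beside 16.5% and 12.0% of all compared rows. These 2 were Suv39h1 and Suv39h2, the enzymes that trimethylate H3 lysine 9 in pericentromeric heterochromatin. Suv39h1 was at 4.97 in O/Tet3 and 1.25 in mOSN, 3.97-fold higher (log2 ratio 1.41). Suv39h2 was at 5.34 in O/Tet3 and 1.30 in mOSN, 4.10-fold higher (log2 ratio 1.46). The pair thus kept nearly equal levels in each library, with Suv39h2 at 1.08 times Suv39h1 in O/Tet3 and 1.04 times in mOSN. Suv39h2 overlaps Dclre1c, a DNA repair nuclease gene, which stood at 4.81 in O/Tet3 and 5.00 in mOSN.

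The euchromatic H3 lysine 9 enzymes were within 2-fold. Ehmt1, encoding GLP, was the highest of the role at 31.3 in O/Tet3 and 20.7 in mOSN (log2 ratio 0.57), and its partner Ehmt2, encoding G9a, was at 4.94 in O/Tet3 and 5.17 in mOSN (log2 ratio -0.05). Both act as a heterodimer that dimethylates H3 lysine 9, yet the level of Ehmt1 was 6.34 times that of Ehmt2 in O/Tet3 and 4.01 times in mOSN. Setdb1, which trimethylates H3 lysine 9 at retroelements together with Trim28, was at 6.15 in O/Tet3 and 4.15 in mOSN. Its relative Setdb2 was at 12.3 in O/Tet3 and 16.6 in mOSN, so Setdb2 exceeded Setdb1 by 2.00 times in O/Tet3 and 3.99 times in mOSN. Prdm2, also known as RIZ, was at 5.60 in O/Tet3 and 9.11 in mOSN (log2 ratio -0.62).

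The arginine methyltransferases comprised 8 members, of which 7 were compared. Of these, 3 were higher and 0 lower, beside 16.5% and 12.0% of all compared rows. After centring 2 were higher and 0 lower, beside 11.3% and 15.1%. Prmt1, which makes most asymmetric dimethylarginine in mammalian cells, was at 13.7 in O/Tet3 and 4.32 in mOSN, 3.17-fold higher (log2 ratio 1.46). Prmt5, the main symmetric enzyme, was at 15.9 in O/Tet3 and 6.19 in mOSN, 2.56-fold higher (log2 ratio 1.23, centred 1.02). Prmt7, a monomethylating enzyme, was at 3.77 in O/Tet3 and 1.08 in mOSN, 3.51-fold higher (log2 ratio 1.20, centred 0.99). The sum over the 8 genes was 52.2 in O/Tet3 and 24.3 in mOSN, and 6 of the 7 compared genes had a ratio above 0, beside 7826 of all 12943 compared rows. Among the 4 within 2-fold, Prmt10, which RefSeq lists as Prmt9, came nearest to the limit at 5.60 in O/Tet3 and 2.90 in mOSN. Prmt2 was at 7.08 in O/Tet3 and 4.73 in mOSN. Prmt3, which methylates a ribosomal protein, was at 4.57 in O/Tet3 and 3.66 in mOSN. Prmt6 had almost the same low value in both, 1.41 in O/Tet3 and 1.42 in mOSN. Prmt8, the close relative of Prmt1 that is known from brain, was at 0.184 in O/Tet3 and listed at 0 in mOSN. The 5 genes listed as partners of these enzymes were all within 2-fold, as were 9256 of all 12943 compared rows. Their log2 ratios were -0.21 to 0.72. Wdr77, encoding the obligate partner MEP50 of Prmt5, was at 4.78 in O/Tet3 and 4.23 in mOSN, and Clns1a, encoding the Prmt5 adaptor pICln, was at 16.8 in O/Tet3 and 14.9 in mOSN. Carm1, a further arginine methyltransferase, was at 1.45 in O/Tet3 and 1.83 in mOSN. Rbm15, an RNA-binding protein and known substrate of Prmt1, was at 4.12 in O/Tet3 and 2.12 in mOSN, and the Prmt1-binding protein gene Btg1 was at 7.62 in O/Tet3 and 4.93 in mOSN.

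**Figure D2:**
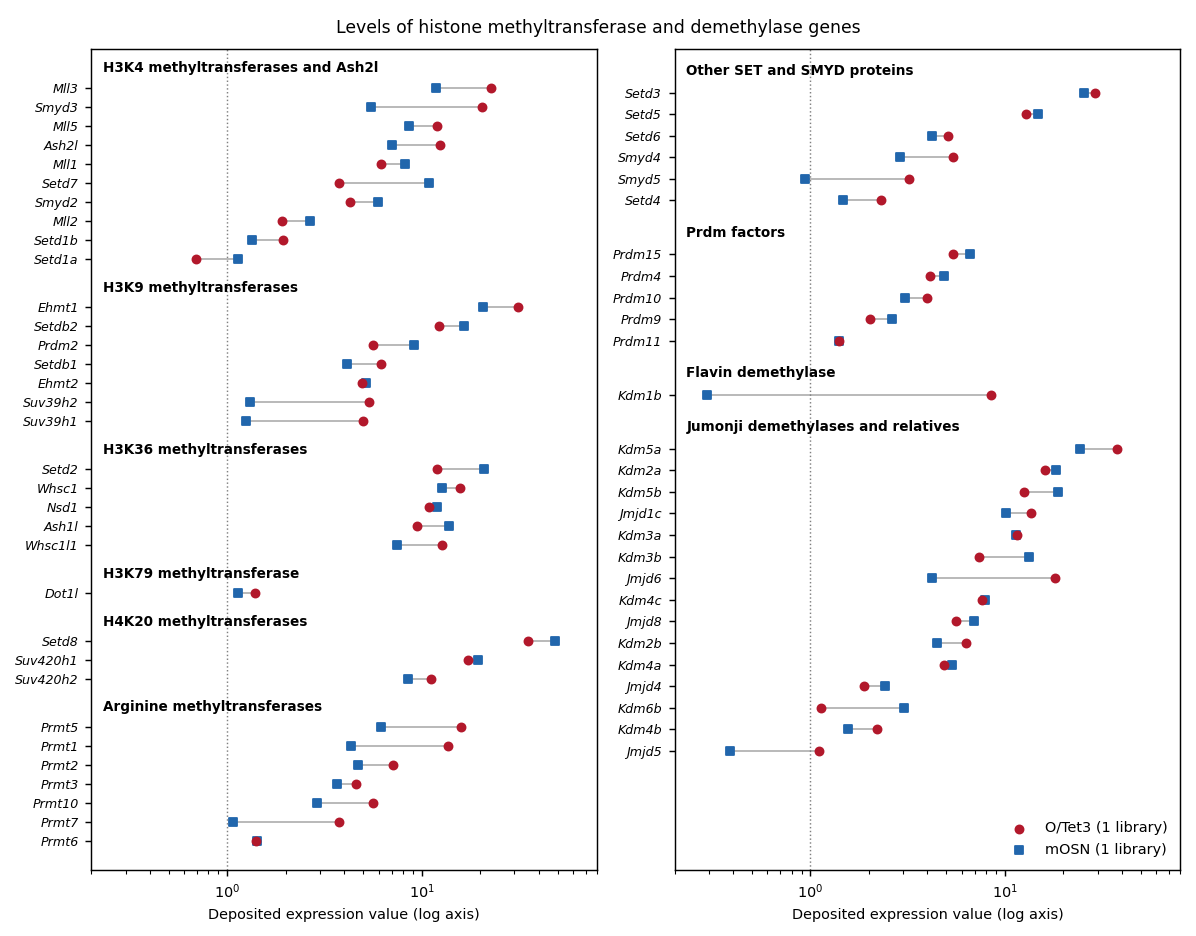
Deposited expression value, on a log axis, of the 60 compared members in O/Tet3 (red circles) and mOSN (blue squares), by role and ordered by mean level within a role. Each point is 1 library; the dotted line marks a value of 1. The longest line joins the Kdm1b values of 8.54 in O/Tet3 and 0.294 in mOSN.

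Among the H3 lysine 4 methyltransferases and the core subunit Ash2l, 10 of 11 members were compared. Past 2-fold, 1 was higher and 1 lower, beside 16.5% and 12.0% of all compared rows. Setd7, also called SET7/9, which monomethylates H3 lysine 4 and many other proteins, was the lower gene. It was at 3.77 in O/Tet3 and 10.9 in mOSN, 2.89-fold lower in O/Tet3 (log2 ratio -1.32, centred -1.53), and ranked 46 by level among the members in O/Tet3 and 17 in mOSN. Smyd3, a SET and MYND domain methyltransferase reported to act on H3 lysine 4 and on cytoplasmic kinases, was the higher one, at 20.5 in O/Tet3 and 5.49 in mOSN, 3.73-fold higher (log2 ratio 1.73). Its relative Smyd2 was at 4.30 in O/Tet3 and 5.97 in mOSN. Smyd3 was thus 4.77 times as high as Smyd2 in O/Tet3 and 0.920 times as high in mOSN.

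The large enzymes of the MLL and SET1 complexes, and Mll5, were within 2-fold. Mll3 (Kmt2c), an enhancer monomethyltransferase, came nearest to the limit at 22.8 in O/Tet3 and 11.8 in mOSN (log2 ratio 0.90). Mll1 (Kmt2a) was at 6.16 in O/Tet3 and 8.16 in mOSN. Mll5 (Kmt2e), which was placed in this group by its name and is not an established H3 lysine 4 methyltransferase, was at 12.0 in O/Tet3 and 8.62 in mOSN. Mll2, a name that RefSeq gives as a synonym of both Kmt2b and Kmt2d, was at 1.91 in O/Tet3 and 2.66 in mOSN. Setd1a was at 0.687 in O/Tet3 and 1.13 in mOSN, and Setd1b at 1.94 in O/Tet3 and 1.34 in mOSN, both low. Ash2l, which the MLL and SET1 enzymes share, was at 12.4 in O/Tet3 and 7.02 in mOSN (log2 ratio 0.74). Smyd1, known from heart and skeletal muscle, was at 0.126 in O/Tet3 and listed at 0 in mOSN.

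The 5 H3 lysine 36 methyltransferases, the 3 H4 lysine 20 methyltransferases and Dot1l, the H3 lysine 79 methyltransferase, were all within 2-fold. So were 9256 of all 12943 compared rows. Setd2, the trimethylase of lysine 36 that travels with RNA polymerase II, was at 12.0 in O/Tet3 and 20.8 in mOSN (log2 ratio -0.75, centred -0.96). The ratios of the other enzymes of that mark lay between that of Ash1l, at 9.48 in O/Tet3 and 13.8 in mOSN, and that of Whsc1l1 (Nsd3), at 12.6 in O/Tet3 and 7.42 in mOSN. Whsc1 (Nsd2) was at 15.7 in O/Tet3 and 12.8 in mOSN, and Nsd1 at 11.0 in O/Tet3 and 12.0 in mOSN. Setd8 (Kmt5a), which places the first methyl group on H4 lysine 20, was the second highest member in O/Tet3 at 35.1 and the highest in mOSN at 48.4. Suv420h1 (Kmt5b), which adds further methyl groups there, was at 17.3 in O/Tet3 and 19.5 in mOSN, and Suv420h2 (Kmt5c) at 11.2 in O/Tet3 and 8.52 in mOSN. Dot1l was low, at 1.40 in O/Tet3 and 1.14 in mOSN.

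The Jumonji demethylases and their relatives comprised 16 members, of which 15 were compared, with a median log2 ratio of -0.04. Past 2-fold, 1 was higher and 0 lower, beside 16.5% and 12.0% of all compared rows. The higher gene was Jmjd6, whose product hydroxylates lysines of splicing factors and has been described as an arginine demethylase. It was at 18.1 in O/Tet3 and 4.21 in mOSN, 4.30-fold higher (log2 ratio 1.87). Jmjd6 overlaps Mettl23, listed in the table under the older name 1110005A03Rik, which stood at 13.5 in O/Tet3 and 11.4 in mOSN. Among the 11 Kdm2 to Kdm6 genes, which remove methyl groups from H3 lysines 4, 9, 27 and 36, 10 were compared and 0 were higher or lower by 2-fold of value + 1. Their summed value was 108 in O/Tet3 and 109 in mOSN.

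Kdm5a, a demethylase of H3 lysine 4, was the highest member of all in O/Tet3, at 37.7 against 24.5 in mOSN (log2 ratio 0.60). Its relative Kdm5b was at 12.6 in O/Tet3 and 18.8 in mOSN (log2 ratio -0.55), so Kdm5a was 3.005 times as high as Kdm5b in O/Tet3 and 1.30 times in mOSN. Kdm6b, a demethylase of H3 lysine 27, was at 1.13 in O/Tet3 and 3.04 in mOSN, 2.69-fold lower in its values, with a log2 ratio of -0.92 that passed 2-fold only after centring (-1.13) or with a smaller pseudocount. Kdm3b, which acts on H3 lysine 9, was at 7.34 in O/Tet3 and 13.3 in mOSN (log2 ratio -0.78), while Kdm3a was at 11.6 in O/Tet3 and 11.4 in mOSN, and the related Jmjd1c at 13.6 in O/Tet3 and 10.1 in mOSN. Kdm2a, a demethylase of H3 lysine 36, was at 16.2 in O/Tet3 and 18.4 in mOSN, and Kdm2b at 6.31 in O/Tet3 and 4.50 in mOSN. The Kdm4 genes, whose products act on H3 lysines 9 and 36, differed little between the libraries. Kdm4c was at 7.63 in O/Tet3 and 7.87 in mOSN. Kdm4a was at 4.88 in O/Tet3 and 5.33 in mOSN, and Kdm4b at 2.20 in O/Tet3 and 1.56 in mOSN. Kdm4d, known from testis, stayed below 1 at 0.217 in O/Tet3 and 0.0906 in mOSN. The protein hydroxylase Jmjd5 was at 1.11 in O/Tet3 and 0.385 in mOSN, 2.87-fold higher in its values but within 2-fold of value + 1 (log2 ratio 0.60); with a pseudocount of 0.1 it passed 2-fold. Jmjd4 was at 1.88 in O/Tet3 and 2.43 in mOSN, and Jmjd8 at 5.60 in O/Tet3 and 6.90 in mOSN.

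The Prdm genes encode zinc finger proteins with a SET-like domain. Of the 13 other than Prdm2, 5 were compared and 0 were higher or lower, beside 16.5% and 12.0% of all compared rows. The highest was Prdm15, at 5.42 in O/Tet3 and 6.60 in mOSN, followed by Prdm4 at 4.11 in O/Tet3 and 4.86 in mOSN and Prdm10 at 3.99 in O/Tet3 and 3.07 in mOSN. Prdm11 was at 1.40 in O/Tet3 and 1.39 in mOSN. Prdm9, the H3 lysine 4 methyltransferase that marks meiotic recombination sites in germ cells, had values of 2.01 in O/Tet3 and 2.64 in mOSN. The 8 remaining Prdm genes stayed below 1 in both libraries, among them Prdm14 and Prdm6, which were listed at 0 in both, and the neural factors Prdm8, Prdm12, Prdm13 and Prdm16, of which the largest value was 0.154, for Prdm13 in O/Tet3.

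Of the 6 other SET and SMYD proteins, 1 was higher and 0 lower, beside 16.5% and 12.0% of all compared rows. Smyd5 was at 3.23 in O/Tet3 and 0.934 in mOSN, with a log2 ratio of 1.13 (centred 0.92). This mOSN value is also below the floor, and the log2 ratio was 1.69 with a pseudocount of 0.1 and 1.79 with none. Setd3, which methylates a histidine of actin, was among the 4 highest members in each library, at 29.1 in O/Tet3 and 25.4 in mOSN. Setd5 was at 12.9 in O/Tet3 and 14.8 in mOSN, and Smyd4 at 5.44 in O/Tet3 and 2.89 in mOSN. Setd6, which methylates a subunit of NF-kB, was at 5.10 in O/Tet3 and 4.22 in mOSN, and Setd4 at 2.29 in O/Tet3 and 1.47 in mOSN. The levels of the members kept much of their order between the libraries. Across the 60 compared members, the Pearson correlation of the log2 values between the libraries was 0.79, against 0.75 across all 12943 compared rows; these are correlations across genes of 2 libraries and not across replicates.

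**Figure D3:**
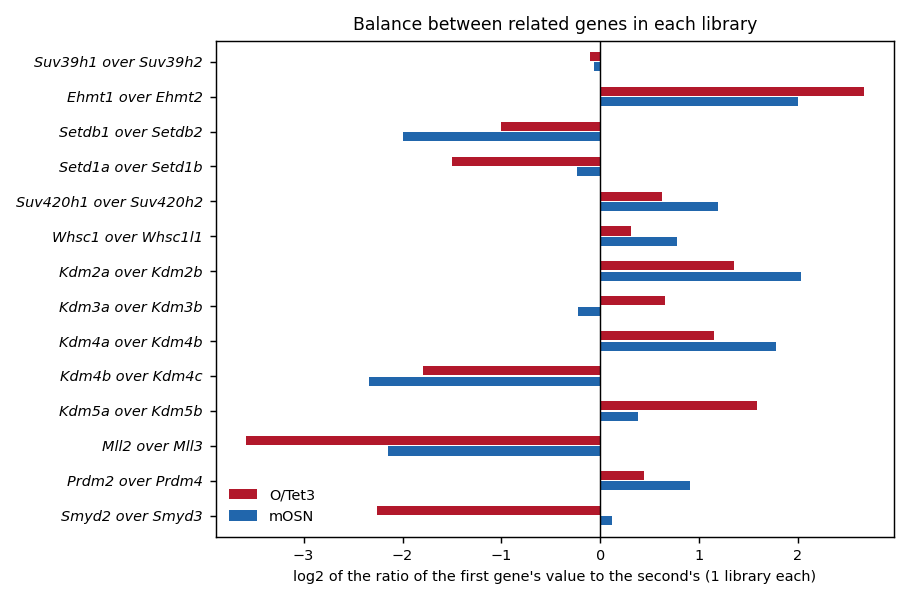
Log2 of the ratio between the values of related genes within each library, O/Tet3 (red) above mOSN (blue), without Prmt1 and Prmt8, since Prmt8 was listed at 0 in mOSN. Suv39h1 and Suv39h2 stand near equality in both, while Smyd3 is 4.77 times Smyd2 in O/Tet3 and 0.920 times in mOSN.

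Balances between related genes differed mostly in size and seldom in direction. Of the 14 plotted pairs, the gene with the higher value was the same in both libraries in 12; the exceptions were Kdm3a with Kdm3b and Smyd2 with Smyd3. How often other pairs of genes keep their order was not counted. Kdm3a was 1.58 times as high as Kdm3b in O/Tet3 and 0.856 times in mOSN. Among these 14 pairs, the largest imbalance in O/Tet3 was that of Mll3 over Mll2, at 11.9 times, against 4.44 times in mOSN.

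Promoter sequence from RefSeq, build GRCm38.p6, was available for 53 of the 71 members. The 250 bases before the annotated start are shown for Kdm1b, which had the largest difference, and for the pair Suv39h1 and Suv39h2. The same stretch is shown for Prmt1 and for Setd7, the lower gene, and all of these are examples. Capitals mark matches on either strand to the CCAAT box motif CCAAT, the GC box motif GGGCGG, the E-box motif CACGTG, the E2F site motifs TTTCCCGC and TTTGGCGC, or the TATA box motif TATAAA, and overlapping matches are merged.
Kdm1b: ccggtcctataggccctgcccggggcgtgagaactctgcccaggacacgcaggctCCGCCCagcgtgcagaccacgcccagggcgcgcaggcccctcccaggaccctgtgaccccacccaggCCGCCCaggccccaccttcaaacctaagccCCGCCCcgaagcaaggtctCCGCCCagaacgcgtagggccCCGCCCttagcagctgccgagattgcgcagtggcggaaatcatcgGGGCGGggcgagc
Suv39h1: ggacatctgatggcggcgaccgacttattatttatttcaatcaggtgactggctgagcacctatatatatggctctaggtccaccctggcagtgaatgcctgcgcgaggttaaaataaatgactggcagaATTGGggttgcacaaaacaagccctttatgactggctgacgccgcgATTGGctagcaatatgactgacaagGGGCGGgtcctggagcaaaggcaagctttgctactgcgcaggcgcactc
Suv39h2: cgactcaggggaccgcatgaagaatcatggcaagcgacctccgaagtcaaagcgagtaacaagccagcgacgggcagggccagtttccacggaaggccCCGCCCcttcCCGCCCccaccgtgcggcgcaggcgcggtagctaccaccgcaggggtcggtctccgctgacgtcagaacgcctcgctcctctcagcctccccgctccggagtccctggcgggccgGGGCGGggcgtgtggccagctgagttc
Prmt1: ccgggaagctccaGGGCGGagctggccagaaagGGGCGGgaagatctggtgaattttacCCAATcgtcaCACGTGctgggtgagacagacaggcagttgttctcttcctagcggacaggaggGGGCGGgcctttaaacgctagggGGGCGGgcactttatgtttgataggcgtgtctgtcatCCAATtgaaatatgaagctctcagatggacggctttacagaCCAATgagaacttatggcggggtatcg
Setd7: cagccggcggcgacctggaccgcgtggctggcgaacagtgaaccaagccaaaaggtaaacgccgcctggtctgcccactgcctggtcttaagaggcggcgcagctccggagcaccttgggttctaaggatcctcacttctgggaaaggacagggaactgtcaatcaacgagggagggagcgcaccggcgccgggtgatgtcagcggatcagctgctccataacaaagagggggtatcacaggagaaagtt

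The sequences lie at chr13:47043249-47043498, strand + for Kdm1b, chrX:8074761-8075010, strand - for Suv39h1, chr2:3474987-3475236, strand - for Suv39h2, chr7:44986421-44986670, strand - for Prmt1 and chr3:51560824-51561073, strand - for Setd7. Where a gene has several annotated starts, the one farthest upstream was taken. The Kdm1b window held 6 GC box matches and 0 of CCAAT, and the Suv39h2 window 3 GC box matches and 0 of CCAAT. The Suv39h1 window held 1 GC box match and 2 of CCAAT, and the Prmt1 window 4 GC box matches, 3 of CCAAT and 1 of CACGTG. The Setd7 window held no match to any of the motifs searched. Neither did the windows of Kdm4c, Prmt6, Prmt10, Setd1a and Setd5, which were within 2-fold. Among the higher genes not shown, the windows of Jmjd6 and Prmt5 held 0 GC box matches, that of Prmt7 held 1 and that of Smyd5 held 2. Smyd3, also higher, was among the members without a window. A GC box match was present in 62.3% of the 53 member windows, 57.8% of the windows of 8086 compared rows and 32.7% of all 32851 windows. A CCAAT match was present in 52.8%, 36.9% and 33.8% of the same sets. The first 2 sets hold 1 window per gene, whereas the 32851 windows come from 27025 genes, some with several starts. The windows of Kdm1b, Suv39h1, Suv39h2, Prmt1 and Setd7 held 22, 11, 27, 13 and 17 CpG dinucleotides, beside medians of 17 over the member windows and 16 over the windows of compared rows. Windows with these letters are a description of sequence and not of binding.

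Genes that work with these enzymes were described by a list of 42, of which 40 were compared. Past 2-fold, 3 were higher and 1 was lower, which is 7.5% and 2.5% of those compared, beside 16.5% and 12.0% of all compared rows. The median log2 ratio was 0.15. After centring 0 were higher and 4 lower, beside 11.3% and 15.1% of all rows. Mat2a, which makes the methyl donor S-adenosylmethionine, was at 26.7 in O/Tet3 and 11.6 in mOSN (log2 ratio 1.14). The related Mat2b, its regulatory subunit, was at 31.8 in O/Tet3 and 27.6 in mOSN, and Ahcy, which clears the product S-adenosylhomocysteine, was at 2.11 in O/Tet3 and 1.76 in mOSN. Mina, a ribosomal oxygenase that has also been described as a histone demethylase, was at 4.21 in O/Tet3 and 1.43 in mOSN (log2 ratio 1.10). Wdr5, a core subunit of the MLL and SET1 complexes, was at 10.5 in O/Tet3 and 4.45 in mOSN (log2 ratio 1.07), and 3 further subunits lay just inside 2-fold, Hcfc2 (0.98), Cxxc1 (0.98) and Dpy30 (0.97). In the same list Ncoa6 (-0.89) and Men1 (-0.63), subunits of MLL complexes, had ratios below 0. Phf2, a demethylase of H3 lysine 9, was the lower gene, at 1.19 in O/Tet3 and 4.39 in mOSN (log2 ratio -1.30). After centring, Jarid2, Ncoa6 and Mllt6 also passed 2-fold on the lower side; Jarid2, a partner of the H3 lysine 27 methyltransferase, was at 25.98 in O/Tet3 and 49.1 in mOSN. The 6 H3 lysine 9 partners include the heterochromatin proteins Cbx1, Cbx3 and Cbx5 and the corepressor Trim28. All 6 were within 2-fold, as were 9256 of all 12943 compared rows, with log2 ratios of -0.60 to 0.14.

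**Figure D4:**
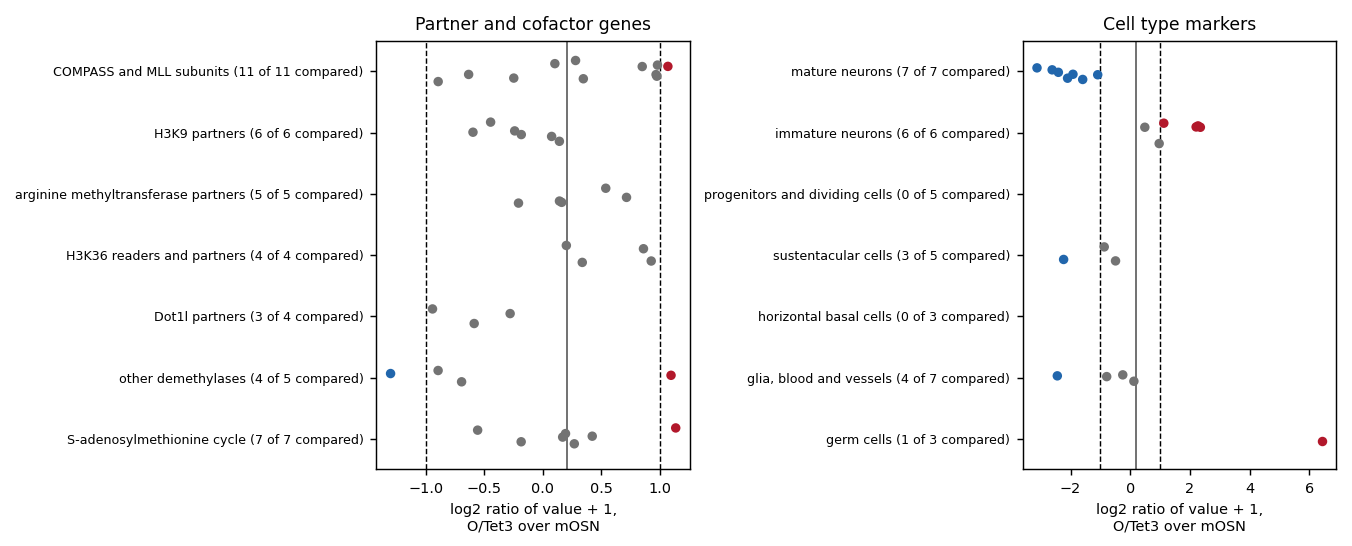
Log2 ratio of value + 1, O/Tet3 over mOSN, of compared partner and cofactor genes (left) and cell type markers (right), with the number compared of the number listed in brackets. Red points are at least 2-fold higher, blue at least 2-fold lower; the solid line is the median shift of 0.21. All 7 mature neuron markers lie to the left of -1, and all 6 immature neuron markers lie to the right of 0.

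Marker lists for other cell types also differed between the libraries. All 6 immature neuron markers had ratios above 0, 4 of them past 2-fold and 3 after centring, where Dpysl3 (log2 ratio 1.12, centred 0.92) left the higher genes, beside 16.5% of all compared rows and 11.3% after centring. The median of the list was 1.67 on the log2 scale, with values of 1.60 to 39.3 (sum 125) in O/Tet3 and 0.327 to 27.7 (sum 44.8) in mOSN. Markers of progenitors and dividing cells stayed below 1 in both libraries, with the 5 genes summing to 1.19 in O/Tet3 and 0.817 in mOSN; Mki67 was at 0.0517 in O/Tet3 and 0.144 in mOSN. The 5 sustentacular markers summed to 5.18 in O/Tet3 and 21.4 in mOSN, with Cyp1a2 listed at 0 in O/Tet3; of the 3 compared, Ugt2a1 was lower, and Sult1c1 as well after centring (log2 ratio -0.87, centred -1.08). The 3 horizontal basal cell markers were listed at 0 in O/Tet3 and summed to 0.207 in mOSN. The 7 markers of glia, blood and vessels summed to 19.6 in O/Tet3 and 26.2 in mOSN, of which the hemoglobin gene Hba-a1 held 15.3 in O/Tet3 and 14.0 in mOSN. In that list the glial marker Fabp7 was lower, at 0.0607 in O/Tet3 and 4.78 in mOSN, the endothelial marker Pecam1 was at 0.508 in O/Tet3 and 0.121 in mOSN, and Cd74 was listed at 0 in O/Tet3. In such pools a different share of cells of a type and a different amount of RNA per cell cannot be told apart, and the part of immature neurons in the higher values of Suv39h1, Suv39h2, Prmt1, Prmt5, Prmt7, Smyd3, Smyd5, Jmjd6 and Kdm1b was not tested.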

How the data were processed

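Per the labels' protocols, ribosomal RNA was removed from the RNA of sorted cells with RiboMinus, and ScriptSeq libraries were amplified by PCR. Tools named in the submitters' processing notes are Cuffdiff, Bowtie and Bowtie2, with build mm9 and no versions or roles; annotation and strand setting are not given in the sources used here. The authors' deposited table holds log2 values, found to be log2(value + 1): after 2 to that power minus 1, 99.3% of O/Tet3 and 99.4% of mOSN values had at most 6 significant digits (relative tolerance 1e-09). The design had been written for a linear unit; the same ratio follows from the log2 columns. The 1st percentile of values above 0 in O/Tet3 was 0.0897 for genes spanning 300 to 600 bases, 0.0499 for 600 to 900 and 0.0276 for 1000 to 2000. Multiplied by span in kilobases it was 0.0510, 0.0349 and 0.0437. Over 25 low rows with the most frequent ratio and spans below 3000 bases, the Spearman correlation of mOSN value with span was -0.26. Columns were assigned by name.

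Ratios are O/Tet3 over mOSN with a pseudocount of 1 and a floor of 1 in either library. With 1 library per group no test was run. Named genes are the called members, the 12 with the highest mean level, the extremes of each role, the related pairs, called partner genes and the markers, of which 1 is not reported here; others are given to account for every member. Members and lists were chosen with earlier results of these data known. The sample of immunoprecipitated DNA is not analysed here. Alternatives were other pseudocounts, floors and folds, centring, and leaving out families or rows listed at 0. Python 3.11.15, pandas 2.3.3 and matplotlib 3.10.9 were used.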

Additional observations from a re-analysis of the deposited data

How the results depend on the processing

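The 10 called members stayed on their side of 2-fold with a mean of at least 1. They also did so without a floor and with a pseudocount of 0.1 or none, but these settings cannot remove a call by construction. After centring, 8 of the called members stayed, without Prmt7 and Smyd5. With a floor of 5, 7 stayed, without Prmt7, Smyd5 and Suv39h1, which do not reach it. Centring subtracts 0.21 from every ratio and moved the member median to 0.00074. Lower members numbered 2 with a pseudocount of 0.1, with none and after centring, where Kdm6b joins Setd7. At 3-fold, 3 members were higher (Kdm1b, Jmjd6 and Smyd3) and 0 lower. Partner genes, 3 higher and 1 lower as reported, were 7 and 2 with a pseudocount of 0.1 or none, 0 and 4 after centring, and 0 and 0 at 3-fold; with a floor of 5, 0 were lower. Of all 12943 compared rows, 3025 were higher and 2025 lower with a pseudocount of 0.1, 1464 and 1953 after centring, and 745 and 673 at 3-fold. Without a pseudocount, where rows listed at 0 drop out, 2945 were higher and 1609 lower. With a floor of 5, the counts over all rows were 1401 and 793. They were 1301 and 646 of 9934 rows with at least 1 in both libraries, an alternative chosen after seeing the data. A stricter floor or fold counts fewer genes by construction. Counting those named here, 46 recomputed counts and medians lay within 1.5 times a reported count or within 0.1 of the median, and 21 did not. No alternative could reverse the direction of a called member. Centring subtracts 0.21 from ratios of at least 1 in size, and the others keep the sign of a ratio. The unknown read depth and single libraries limit every difference, above all those of Kdm1b and Smyd5, which are below 1 in mOSN. No paired analysis was possible because O/Tet3 and mOSN have 1 library each.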
